A study of Mus musculus with 60 samples.

Results

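Ambp and 9 other genes of secreted plasma proteins were followed in mouse cholangiocyte-derived organoids, which are epithelial spheres grown from bile duct fragments of the liver. The 10 genes were Ambp, Alb, Ttr, Trf, C3, Hp, Hpx, Ahsg, Fgb and Fgg, and they were taken as the rows of 3 count tables (23440, 23068 and 28773 genes) whose Ensembl identifiers carry these symbols. Ambp was chosen on its counts at passage 11 against passage 4 in bulk cultures, so that contrast is given for all 10 genes as a description with no test. Of the 10 genes, 9 had a row in the dome and suspension table and in the single organoid table and 8 in the passage table. After the filter on low counts, 7, 8 and 7 genes were left in the culture, single organoid and passage tables. No row was found for Ahsg in any table and none for Fgg in the passage table, and these were not analysed here.

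The 60 libraries came from C57BL/6N mice labelled as 3 to 4 months old, and the study's methods call the mice male. Dome 1–3 were bulk cultures kept in Matrigel droplets, and suspension 1–3 were bulk cultures that had started in domes and were then kept on a shaker in dilute Matrigel. These cultures came from 3 pools of 2, 4 and 3 mice, and which culture came from which pool was not given in the sources used here. Set 1, Set 2, Set 3 and Set 4 are cultures from 1 mouse each. Single organoids were picked from suspension at passage 11 for Set 1 (8 organoids), passage 3 for Set 2 (10) and Set 3 (5) and passage 4 for Set 4 (12), and a further 7 of the 42 libraries that the study left out were left out here. For Sets 1, 3 and 4, bulk RNA was also sequenced at passages 4 and 11. Each of these 6 cultures had 2 technical replicates, which were summed, and whether they were domes or suspension was not given in the sources used here. No group carried a transgene or received a drug according to the labels. Because each set is 1 mouse and Set 1 alone had reached passage 11, mouse and passage cannot be told apart among single organoids, and their P-values measure the spread between organoids of a mouse.

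The libraries held 1776490 to 14761853 counts in the culture table, 1486347 to 5532630 in the passage table and 1059002 to 11175868 for the 35 single organoids. Levels are given as CPM, the counts of a gene per 1e6 counts of a library, with library sizes scaled by TMM, a normalisation that assumes most genes do not change. A level of 3 counts stood at no more than 1.69 CPM in any culture library and 2.02 CPM in any passage library. In any single organoid it stood at no more than 2.83 CPM. Alb, Hp, Hpx and Fgb were thus near this level in many libraries. The SDs over cultures or organoids include this counting error. All 10 ductal markers had counts in each table, with a summed level of 3509.64 to 11456.4 CPM per library. Of the 12 hepatocyte enzymes that are not secreted, 9, 6 and 9 had any count in the culture, passage and single organoid tables, with Pck1 and Hpd at 0 in every library of the 3 tables, Cps1 at 0 in the culture and passage libraries and G6pc at 0 in the passage libraries and the single organoids.

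The liver makes most proteins of blood plasma, and hepatocytes are their main source, whereas bile duct cells are not known for this role. Ambp encodes a precursor that is cut into alpha-1-microglobulin, a scavenger of heme and radicals, and bikunin, the inhibitor chain shared by the inter-alpha-inhibitor complexes. Albumin (Alb), transthyretin (Ttr) and transferrin (Trf) carry fatty acids, thyroid hormone and iron. Haptoglobin (Hp) and hemopexin (Hpx) bind free hemoglobin and heme, C3 is the central component of complement, Ahsg is fetuin-A, and Fgb and Fgg are chains of fibrinogen, the clotting protein. Interleukin-6 acting through STAT3, and the factors of the C/EBP family, are classic regulators of such genes in liver.

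Ambp (ENSMUSG00000028356) lies on chromosome 4 of GRCm38 at 63143275–63154799 on the minus strand. Alb (ENSMUSG00000029368) is on chromosome 5 at 90460897–90476602 on the plus strand, and Fgb (ENSMUSG00000033831) is on chromosome 3 at 83040141–83049863 on the minus strand. Fgg (ENSMUSG00000033860) is on the same chromosome at 83007724–83015049, on the plus strand. A further 4 members are on the minus strand, Trf (chromosome 9, 103204001–103230444), C3 (chromosome 17, 57203970–57228136), Hp (chromosome 8, 109575128–109579172) and Hpx (chromosome 7, 105591613–105600137). Ahsg (chromosome 16, 22891277–22899449) is on the plus strand.

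Promoter sequences of RefSeq on GRCm38.p6 matched 7 of the 10 genes. The 250 bases before the RefSeq start are shown for Ambp, Alb, Fgb and Hpx, because these 4 genes were each at their highest of 35 organoids in the same organoid of Set 1 (see the values by set). Capitals mark matches, on either strand, to TTGCNNAA (C/EBP), TTCNNNGAA (STAT) and TATAAA (the box bound by TBP). The windows are chr4:63154173-63154422 on the minus strand, chr5:90460620-90460869 on the plus strand, chr3:83049864-83050113 on the minus strand and chr7:105600117-105600366 on the minus strand, all written 5′ to 3′. The Ambp window lies inside the longest annotated gene model, with 1 base in an annotated exon, the Hpx window has 21 bases in an annotated exon, and the other windows touch no exon.
Ambp: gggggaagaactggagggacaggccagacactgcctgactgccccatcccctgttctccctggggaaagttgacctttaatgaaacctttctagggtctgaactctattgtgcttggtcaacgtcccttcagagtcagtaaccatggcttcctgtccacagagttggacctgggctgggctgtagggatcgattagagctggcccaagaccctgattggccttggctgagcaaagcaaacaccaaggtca
Alb: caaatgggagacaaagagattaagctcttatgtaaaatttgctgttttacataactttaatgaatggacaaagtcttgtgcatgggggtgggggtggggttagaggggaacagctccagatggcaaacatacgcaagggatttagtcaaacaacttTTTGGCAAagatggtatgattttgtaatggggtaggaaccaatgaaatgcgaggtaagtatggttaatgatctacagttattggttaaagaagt
Fgb: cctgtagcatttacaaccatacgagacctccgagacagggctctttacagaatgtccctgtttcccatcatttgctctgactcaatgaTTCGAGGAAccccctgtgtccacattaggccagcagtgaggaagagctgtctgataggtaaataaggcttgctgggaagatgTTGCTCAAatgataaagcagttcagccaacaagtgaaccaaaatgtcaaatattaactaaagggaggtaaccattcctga
Hpx: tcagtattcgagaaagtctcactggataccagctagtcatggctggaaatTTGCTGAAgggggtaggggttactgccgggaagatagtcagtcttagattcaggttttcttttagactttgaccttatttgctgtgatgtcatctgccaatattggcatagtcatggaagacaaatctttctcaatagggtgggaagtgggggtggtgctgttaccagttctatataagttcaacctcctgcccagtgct
The Fgb window held a STAT match (TTCGAGGAA) at -162 to -154 from the start and a C/EBP match (TTGCTCAA) at -80 to -73. In the Alb window, a C/EBP match (TTTGGCAA on the printed strand) stood at -94 to -87, and in the Hpx window a C/EBP match (TTGCTGAA) stood at -200 to -193. No match overlapped another. The Ambp window held none of the 3 patterns, which says only that these letters are not in it. Over 32851 promoters of the same length, 9.56% held the C/EBP pattern, 7.02% the STAT pattern and 12.4% the TBP box. A match is a description of letters and not of a bound site.

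The first comparison asked how the plasma protein genes differ between dome and suspension culture. Ambp stood at 291, 439 and 593 CPM in domes 1–3 and at 99.3, 117 and 95.2 CPM in suspension 1–3. The dome and suspension cultures did not overlap, and the dome mean of 441 ± 151 CPM (SD, n = 3) was 4.24 times the suspension mean of 104 ± 11.7 CPM (SD, n = 3). On the log2 scale Ambp was higher in domes by 2.08 (SE 0.27, adj. P-value 0.00135). It was called in every alternative run, at 1.78 to 2.31 with adj. P-values of 4.54e-14 to 0.0119. The smallest came from the run with no filter, where the SEs of other members fell for the same cultures (Trf from 0.91 to 0.25). No weight is put on that P-value. Of the 7 members tested, Ambp and Fgb were the 2 called, both higher in domes. Over all genes 29.8% were called in either direction (1907 higher and 1872 lower), so the share of members called was near this background. The domes lay wholly above the suspension cultures for the same 2 of 7 members and for 21.6% of all genes.

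Fgb, the beta chain of fibrinogen, was at 2.43, 3.66 and 12.6 CPM in domes and at 0.210, 2.12 and 1.10 CPM in suspension. The groups did not overlap, but counts ran from 1 to 32 per library and dome 3 lay far above the other cultures. Its log2 fold-change was 2.26 (SE 0.76, adj. P-value 0.0477), and this call was lost with limma-voom, with thinned counts and without dome 2, dome 3 or any 1 of the 3 suspension cultures (adj. P-values of 0.0521 to 0.168). Fgg, its partner chain, had 1 count in all 6 libraries together.

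For transferrin, the dome cultures were the most unequal. Trf stood at 6.54, 42.5 and 226 CPM in domes and at 18.9, 27.1 and 46.3 CPM in suspension, so dome 1 was the lowest and dome 3 the highest of all 6. The difference of 1.52 (SE 0.91) on the log2 scale did not pass the test (adj. P-value 0.226), whereas without dome 1 the value was 2.11 with an adj. P-value of 0.0238. Without dome 3 the sign turned, to -0.67. Ttr, the thyroid hormone carrier, was at 267, 261 and 767 CPM in domes and at 461, 215 and 582 CPM in suspension (log2 fold-change 0.04, SE 0.46, adj. P-value 0.963). These ranges overlapped, and again dome 3 was the highest of the domes.

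Albumin was scarce in both kinds of culture. Alb was at 0.912, 2.20 and 3.85 CPM in domes, from 3 to 12 counts, and at 0.210, 2.12 and 4.95 CPM in suspension, from 1 to 72 counts. Its log2 fold-change was -0.71 (SE 0.85, adj. P-value 0.556). The complement gene C3 ranged from 3.65 to 33.5 CPM in domes and from 10.7 to 39.0 CPM in suspension (log2 fold-change -0.36, SE 0.73, adj. P-value 0.739). For the hemoglobin and heme scavengers, Hpx was at 5.47, 0.732 and 4.94 CPM in domes and at 3.15, 2.60 and 1.72 CPM in suspension (log2 fold-change 0.88, SE 0.48, adj. P-value 0.192), with 1 count in dome 2. Without dome 2, Hpx passed the test (1.18, adj. P-value 0.0429). Hp had no count in the 3 domes and 5 counts in suspension, and it was too low to test. Alb, C3, Ttr and Trf thus overlapped between the groups, and their differences did not exceed the spread between cultures.

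**Figure D1:**
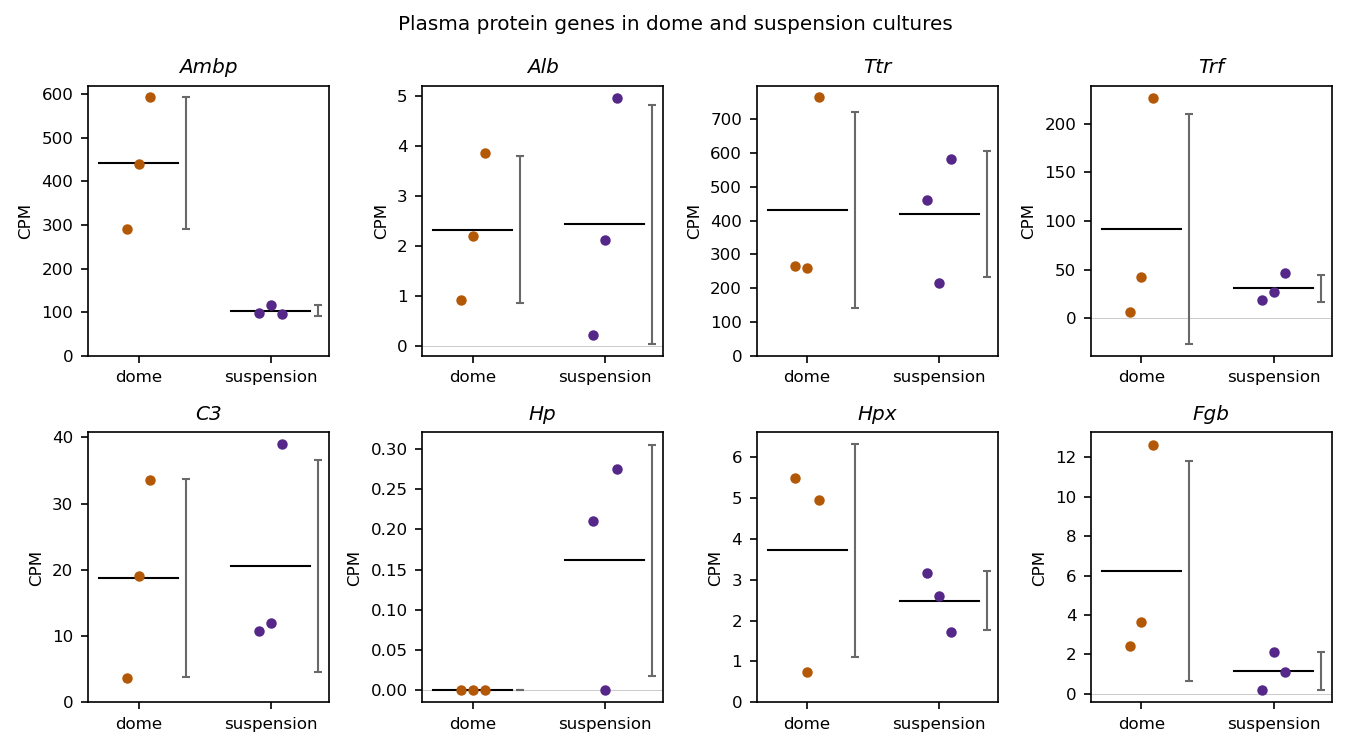
CPM of 8 plasma protein genes (panels, each with its own linear axis) in 3 dome and 3 suspension cultures. Points are libraries, lines are means and grey bars are SDs. Ambp in the 3 domes sits between 291 and 593 CPM, above the suspension cultures at 95.2 to 117 CPM, and Trf and Ttr are highest in dome 3.

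Further genes of secreted plasma proteins numbered 82 (carriers, clotting, complement, protease inhibitors and acute-phase proteins), and 21 could be tested between domes and suspension. Of these, 7 were called higher and 1 lower in domes, where 29.8% of all genes were called in either direction (1907 higher and 1872 lower). The median log2 fold-change was 0.71 against -0.04 over all genes. The acute-phase protein Saa3 was higher by 4.72 (SE 0.87, adj. P-value 0.00462), and Lrg1 by 3.27 (adj. P-value 0.00982). C4bp, a chain of the binding protein that restrains complement, was higher by 1.92 (adj. P-value 0.00149), and the anticoagulant protein C gene Proc by 1.33 (adj. P-value 0.0073). Tcn2, the cobalamin carrier, and Pzp, a broad protease inhibitor, were higher by 1.24 and 1.13 (adj. P-values 0.0033 and 0.00798). The vitamin D carrier Gc was the gene called lower, by -2.01 (SE 0.32, adj. P-value 0.00277). Thus carriers were called in both directions, with 1 higher and 1 lower of 5 tested. By list, the calls higher in domes were 3 of 7 acute-phase genes, 1 of 5 complement genes, 1 of 2 clotting genes and 1 of 2 inhibitors. These lists are short, and nothing is read from their counts against the share of all genes.

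Of 10 genes of the interleukin-6 pathway and its liver factors, 8 were tested in this comparison, in which 29.8% of all genes were called. Socs3, a feedback inhibitor that STAT3 switches on, and Stat3 itself were higher in domes by 1.51 (adj. P-value 0.0209) and 0.89 (adj. P-value 0.0333). Il6st, which encodes the shared signalling receptor gp130, was lower by -1.07 (adj. P-value 0.0278). Jak1, Cebpa, Cebpb, Cebpd and Hnf4a were not called (adj. P-values 0.0829 to 0.931). Activity of the pathway was not tested. Of 4 receptors for plasma proteins that were tested, the transferrin receptor Tfrc was lower by -1.22 (adj. P-value 0.0135) and the other 3 were not called.

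Several other features moved with culture type. All 6 proliferation genes were called lower in domes (summed level 125 to 249.9 CPM against 499 to 590.1 CPM), and mitochondrial genes took 1.64–2.02% of counts in domes and 3.72–4.02% in suspension. Of the 10 ductal markers, 5 were called higher and 1 lower in domes. Both hepatocyte enzymes that could be tested were called, in opposite directions, with the urea cycle enzyme Ass1 higher in domes by 3.38 (adj. P-value 0.0017, means of 176 CPM in domes and 17.0 CPM in suspension) and the tyrosine-degrading enzyme Fah lower by -1.37 (adj. P-value 0.0416). The list, mostly Ass1 in domes, summed to 107 to 306 CPM and 30.0 to 49.8 CPM. The macrophage list summed to 6.92, 29.1 and 93.0 CPM as its lowest, median and highest level in domes and to 3.36 to 9.44 CPM in suspension. Most of this came from Cd68, which epithelial cells can also express. Ptprc, Adgre1, Csf1r and C1qa also had counts, and C1qb, Clec4f and Marco were at 0. Cd68 was called higher in domes by 3.06 (adj. P-value 0.0223), and Csf1r was not called (-1.12, adj. P-value 0.311). Endothelial and mesenchymal lists stayed at or below 1.65 CPM. The share of these features in the Ambp and Fgb differences was not tested. In bulk cultures, fewer cells of a kind and less RNA per cell cannot be told apart.

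The bulk cultures at passage 4 and passage 11 gave the contrast on which Ambp had been chosen. Ambp was at 131, 264 and 189 CPM at passage 4 in Sets 1, 3 and 4, and at 14.3, 14.7 and 14.6 CPM at passage 11. Each set was thus far lower at the later passage, by a factor of 9.13 in Set 1, 18.0 in Set 3 and 12.9 in Set 4. The means were 195 ± 66.6 CPM (SD, n = 3) and 14.5 ± 0.180 CPM (SD, n = 3), from 506 to 1377 and 23 to 74 counts per culture. Levels differed by 2.01 times between sets at passage 4 and lay within 0.345 CPM of each other at passage 11. With 23 to 74 counts per culture at passage 11, differences this small cannot be resolved, so no common level is read from this. The fitted log2 fold-change was -3.74 (SE 0.26) and ran from -3.96 to -3.46 over the alternatives. Technical replicates at passage 11 ranged from 10.0 to 20.5 CPM, with the widest pair in Set 4, and at passage 4 from 127 to 268 CPM.

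C3 was the member nearest to Ambp in this contrast. Its levels were 253, 233 and 191 CPM at passage 4 and 44.8, 73.3 and 24.1 CPM at passage 11, lower by a factor of 5.63, 3.18 and 7.91 in Sets 1, 3 and 4, and its fitted log2 fold-change was -2.20 (SE 0.30). Hpx was at 3.62, 12.8 and 3.86 CPM and then at 1.79, 2.98 and 1.27 CPM (log2 fold-change -1.63, SE 0.57). Ambp, C3 and Hpx were the members whose passage 11 cultures were all below all passage 4 cultures, 3 of 7 tested, where 20.3% of all genes tested had this order, and nothing is read from this count because the contrast chose Ambp. The Hpx value rested in good part on Set 3, since without its passage 4 culture the log2 fold-change was -0.77. Over all genes, 10.1% were called lower and 10.1% higher at passage 11, and nothing is read from this share for the members.

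Ttr and Trf went the other way. Ttr was at 267, 542 and 684 CPM at passage 4 and at 732, 659 and 1091 CPM at passage 11, higher in each set by a factor of 2.74, 1.22 and 1.59, with both technical replicates of each set above those of passage 4 (log2 fold-change 0.73, SE 0.31). Trf was at 117, 222 and 133 CPM and then at 220.1, 387 and 119 CPM (log2 fold-change 0.63, SE 0.36). Sets 1 and 3 were higher at passage 11 and the technical replicates of Set 4 overlapped between passages. The remaining members were near the counting limit. Alb had 15 counts in the 3 cultures of passage 4 and 3 counts at passage 11, Hp had 33 and 6, and Fgb had 6 and 1, with no Fgb count in Set 1 at either passage. Most of the Hp counts, 25 of 33, came from Set 3 at passage 4.

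**Figure D2:**
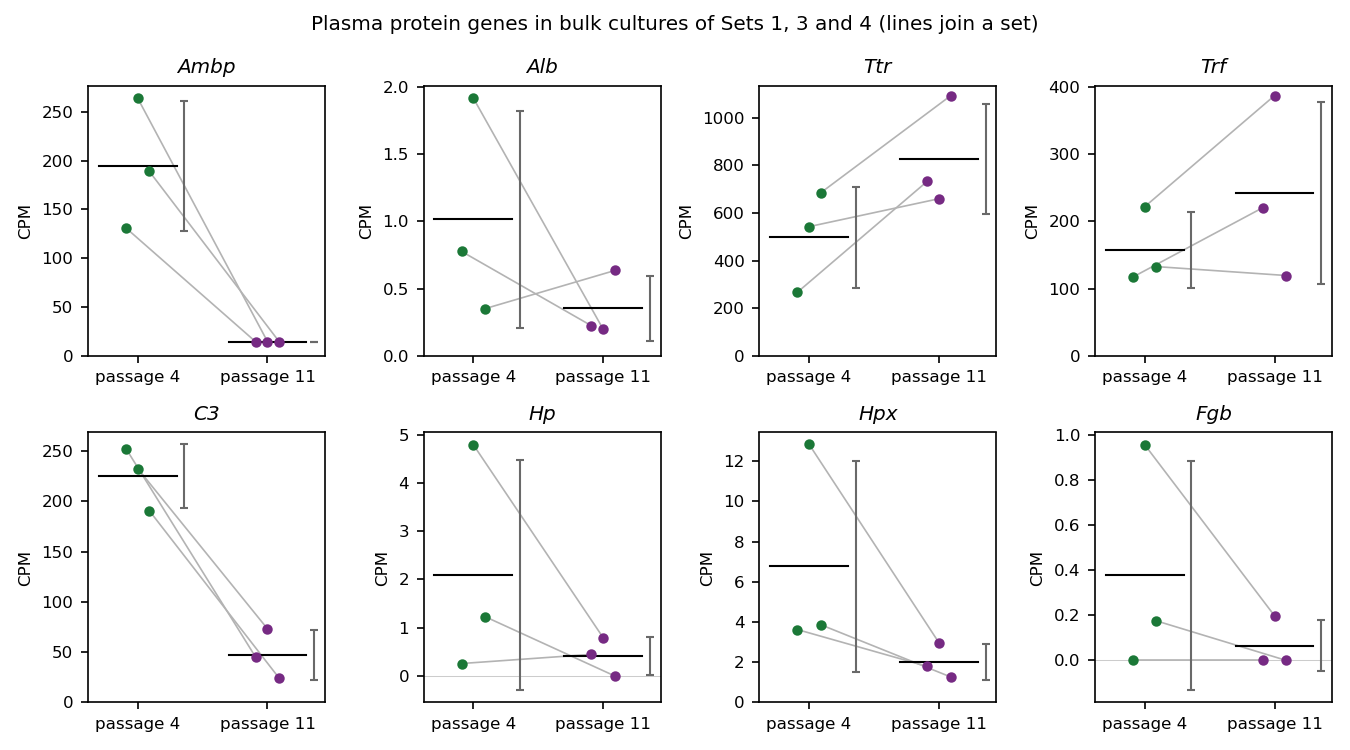
CPM of 8 plasma protein genes (panels, each with its own linear axis) in bulk RNA of Sets 1, 3 and 4 from passages 4 and 11. Points are cultures with technical replicates summed, grey lines join a set, black lines are means and grey bars are SDs. Ambp ends at 14.3 to 14.7 CPM in all 3 sets, whereas Ttr is higher at passage 11 in each set.

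The other plasma protein genes come from whole functional lists, which were also drawn up with earlier results of these data known. Of 20 genes tested, 11 were called and all 11 were lower at passage 11, where 10.1% of all genes were called lower and 10.1% higher. The median log2 fold-change was -1.17 over the 20 against -0.05 over all genes. Because this contrast chose Ambp and the lists were drawn up with earlier results known, these counts are a description. The complement protease C2 was lower by -3.25 (SE 0.41, adj. P-value 0.00114). Acute-phase genes gave 5 of the 11 calls, 5 of 6 tested, among them Saa3 at -2.57 (adj. P-value 0.00922), Lcn2, an iron-siderophore binding protein, at -2.09 (adj. P-value 0.00702) and the lipopolysaccharide carrier Lbp at -1.30 (adj. P-value 0.0274). The copper carrier Cp and Tcn2 were lower by -1.03 and -0.88 (adj. P-values 0.029 and 0.0104). Saa3 and Tcn2 had been called higher in domes. The summed acute-phase level was 2767.98 to 4976.83 CPM at passage 4 and 509 to 1596 CPM at passage 11. The 3 clotting genes tested had a median of 0.32. From the interleukin-6 list, Il6ra, Il6st and Cebpb were lower by -3.13, -1.53 and -0.60 (adj. P-values 0.0345, 0.00684 and 0.0157), and Lrp1, the receptor that clears Hpx with its heme, by -1.39 (adj. P-value 0.0214). The other 7 genes of the interleukin-6 list and the other 3 receptors tested were not called.

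At passage 11, 5 of 6 proliferation genes were called higher (summed level 504 to 674 CPM against 230.1 to 259 CPM), and mitochondrial genes took 0.895–1.71% of counts against 1.99–2.63%. Ductal markers summed to 6705.24 to 7366.09 CPM and to 5262.65 to 7507.03 CPM at the 2 passages, with 1 marker called higher and 1 lower. The macrophage list, mostly Cd68, summed to 2.58 to 4.48 CPM at passage 11 and 4.60 to 18.4 CPM at passage 4, and the hepatocyte enzymes to 19.1 to 23.1 CPM and 17.9 to 29.0 CPM. The part these features have in the levels of the plasma protein genes was not tested.

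In single organoids, Set 1 (passage 11) had the highest Ambp level and not the lowest. The 8 organoids of Set 1 ran from 45.3 to 724 CPM with a median of 168 CPM. Set 2 ran from 47.6 to 131 CPM (median 83.1), and Set 4 from 28.7 to 139 CPM (median 50.9). The 5 organoids of Set 3 were at 62.7, 64.9, 69.9, 73.8 and 125 CPM. All 4 sets overlapped, and 4 of 8 organoids of Set 1 lay above all 27 of the other sets. The means were 218 ± 218 CPM (SD, n = 8), 82.7 ± 26.9 (n = 10), 79.3 ± 26.0 (n = 5) and 58.5 ± 31.9 (n = 12) for Sets 1, 2, 3 and 4. On the log2 scale, Set 1 was higher by 1.42 (SE 0.33, adj. P-value 0.00351) against Set 2, 1.47 (SE 0.42, adj. P-value 0.0173) against Set 3 and 1.89 (SE 0.32, adj. P-value 5.51e-05) against Set 4. In the order Set 1, Set 2, Set 3, Set 4, the neighbours Set 2 and Set 3 (adj. P-value 0.954) and Set 3 and Set 4 (adj. P-value 0.506) did not differ beyond their spread.

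A single organoid weighed on this result. Organoid 3 of Set 1 had 3293 counts of Ambp and 724 CPM, 5.56 times the median of the other 7 organoids of its set. Without it, Set 1 was higher by 0.84 (SE 0.29, adj. P-value 0.0514) against Set 2, 0.89 (SE 0.35, adj. P-value 0.0953) against Set 3 and 1.31 (SE 0.27, adj. P-value 0.00115) against Set 4, so the calls against Sets 2 and 3 were lost. Its library of 4638927 counts was within the range of the set, and its mitochondrial share of 2.45% was the lowest of Set 1.

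Fgb and Hpx were also called higher in Set 1 than in each other set, which made 3 of 8 members tested, against 2.41% of all genes higher and 1.52% lower in Set 1 than in each of Sets 2, 3 and 4. For single comparisons in either direction the shares of all genes were 14.3% against Set 2, 9.43% against Set 3 and 20.0% against Set 4. Fgb ran from 6.04 to 143 CPM in Set 1 with a median of 11.8 CPM, and the medians of Sets 2, 3 and 4 were 3.60, 2.88 and 2.34 CPM. All but 2 organoids of Set 1 lay above every other organoid for this gene. The log2 fold-changes were 2.79 (SE 0.46, adj. P-value 3.84e-05), 2.79 (SE 0.59, adj. P-value 0.00117) and 3.49 (SE 0.45, adj. P-value 4.61e-07) against Sets 2, 3 and 4. Organoid 3 was at 143 CPM and the next of its set at 19.3 CPM. Counts of Fgb ran from 15 to 651 per organoid in Set 1 and only from 2 to 18 in the other sets. Without organoid 3 the values were 1.44, 1.44 and 2.14 (adj. P-values 0.000819, 0.00653 and 1.28e-06), smaller but still called. Fgg had 2 counts in all 35 organoids, 1 each in organoids 3 and 8 of Set 1.

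Hpx, the heme scavenger, showed the cleanest separation, with 7 of 8 organoids of Set 1 above all others. Set 1 ran from 3.76 to 16.3 CPM (median 5.65), Set 2 from 1.31 to 4.06 CPM (median 2.28), and Set 4 from 0.536 to 3.91 CPM (median 1.63). Set 3 had 2.38, 2.88, 3.25, 3.18 and 3.68 CPM. The log2 fold-changes of 1.84, 1.43 and 2.34 (adj. P-values 2.37e-05, 0.00516 and 1.54e-07) became 1.60, 1.19 and 2.09 (adj. P-values 0.000198, 0.0196 and 1.37e-06) without organoid 3. Counts were low, at 1 to 91 per organoid, and with libraries thinned to the smallest total the calls against Sets 2 and 3 were lost (adj. P-values 0.054 and 0.232).

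Albumin followed 1 organoid. Alb was at 44.0 CPM (200 counts) in organoid 3 of Set 1, at 11.5 CPM in organoid 6 and at 1.13 to 3.10 CPM in the other 6 of that set. The medians were 2.03, 3.75, 2.52 and 0.929 CPM in Sets 1 to 4, so Set 1 was not the highest by its median. Set 1 was called higher than Set 4 only (log2 fold-change 2.94, SE 0.56, adj. P-value 0.000333), and without organoid 3 this value was 1.53 (adj. P-value 0.0288) and that against Set 2 was -0.06.

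Other members had a different order of the sets. C3 was lowest in Set 1, at 14.1 to 45.9 CPM (median 24.6), and highest in Set 3, at 96.8, 142, 124, 84.0 and 104 CPM. Set 2 ran from 46.7 to 128 CPM, all above the highest organoid of Set 1. Set 1 was lower by -1.39 (SE 0.33, adj. P-value 0.00426) against Set 2 and by -2.04 (SE 0.38, adj. P-value 0.00023) against Set 3, while -0.75 against Set 4 (SE 0.32, adj. P-value 0.118) did not pass. Set 4 ran from 12.2 to 146 CPM.

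Ttr had medians of 1178, 807, 481 and 1422 CPM in Sets 1 to 4, with organoids from 414 to 2622.52 CPM. Set 1 and Set 4 had nearly the same mean (1350.2 ± 673 CPM, n = 8, and 1350.5 ± 721 CPM, n = 12, SD), and Set 3 was lower than either, with log2 fold-changes of 1.39 for Set 1 minus Set 3 (SE 0.37, adj. P-value 0.00982) and -1.39 for Set 3 minus Set 4 (SE 0.36, adj. P-value 0.00695). Both calls were lost with all 42 organoids (adj. P-values 0.0612 and 0.0641). The difference between Set 1 and Set 4 was 0.00 (SE 0.28).

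Trf was highest in Set 3, at 202, 147, 215, 272 and 78.9 CPM, with medians of 72.8, 84.4 and 41.8 CPM in Sets 1, 2 and 4. Its call was Set 3 above Set 4 (log2 fold-change 1.71, SE 0.36, adj. P-value 0.00101). Set 1 minus Set 3 was -1.13 (SE 0.39, adj. P-value 0.0516), just short of the threshold of 0.05. Hp was likewise highest in Set 3, at 9.80, 6.49, 10.8, 1.41 and 3.68 CPM, against medians of 2.895, 1.69 and 0.900 CPM in Sets 1, 2 and 4. Set 3 was above Set 4 by 2.31 (SE 0.52, adj. P-value 0.00212), and Set 2 minus Set 3 was -1.55 (SE 0.52, adj. P-value 0.0447), a call that 9 of the 15 alternatives did not keep. In all, 4 members (Ttr, Trf, C3 and Hp) were called in at least 1 comparison among Sets 2, 3 and 4, against 21.1% of all genes. In this fit Ambp, Alb, Hpx and Fgb were not called in any of these 3 comparisons. For Alb, Set 2 minus Set 4 was 1.59 (adj. P-value 0.0844). It was called with DESeq2 (1.64, adj. P-value 0.00492) and without organoid 3 of Set 1 (1.59, adj. P-value 0.0174).

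**Figure D3:**
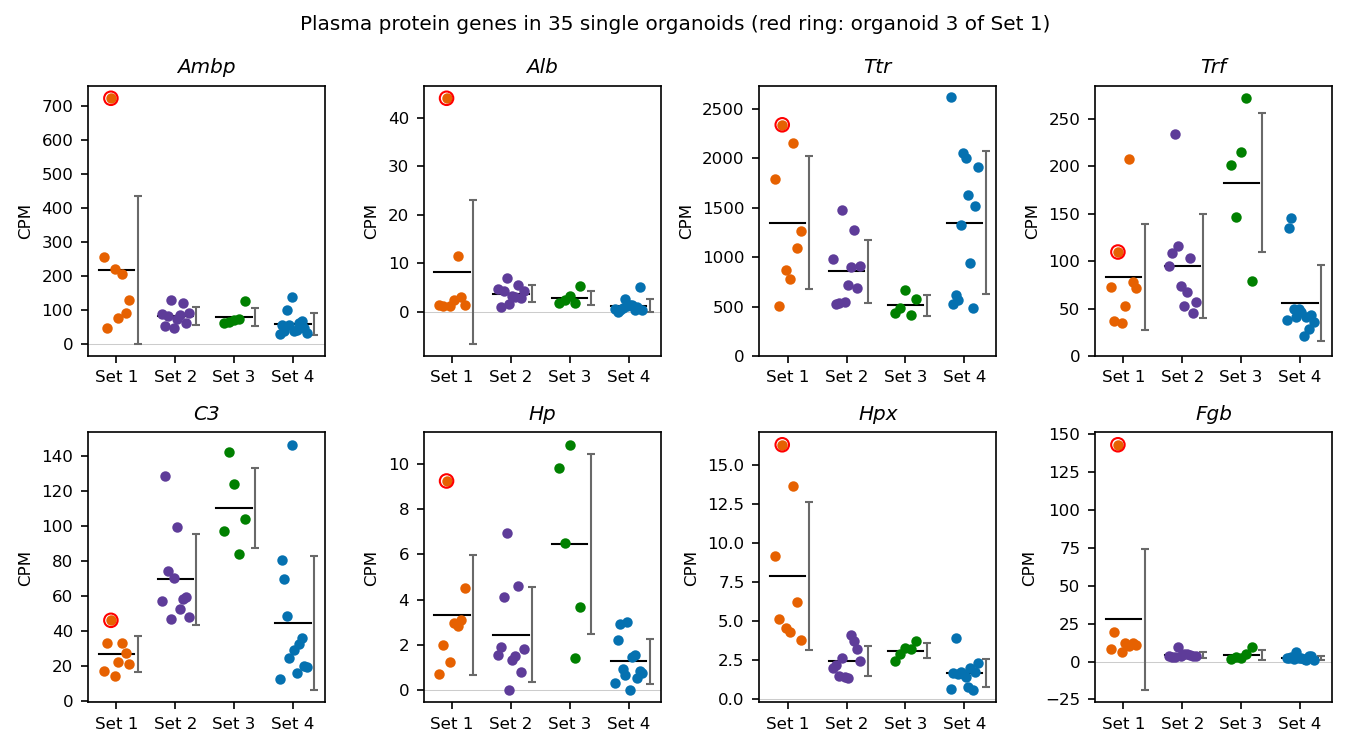
CPM of 8 plasma protein genes (panels, each with its own linear axis) in 35 single organoids of 4 sets. Points are organoids, black lines are means, grey bars are SDs and the red ring marks organoid 3 of Set 1. That organoid stands at 724 CPM for Ambp, 44.0 CPM for Alb and 143 CPM for Fgb, above all other organoids, while C3, Trf and Hp have their highest set mean in Set 3.

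Of the further plasma protein genes, 23 were tested in single organoids. The 4 called were all higher in Set 1 than in each other set, as were 2.41% of all genes. C4bp was higher by 1.11 on average (largest adj. P-value 0.0425). The other 3, which were below the level set for naming genes and were chosen after their values were seen, were Fga, the alpha chain of fibrinogen, Itih2, a heavy chain to which bikunin is linked in inter-alpha-inhibitor, and Pzp. Fga was higher by 3.56, 2.52 and 4.51, Itih2 by 2.898, 2.06 and 3.43 and Pzp by 1.15, 1.16 and 2.19 against Sets 2, 3 and 4. The list median was 0.21 against 0.01 over all genes. Without organoid 3 of Set 1, 1 of these 4 calls was left, and 1 or 2 were left when any 1 organoid of Set 3 was removed. In organoid 3, the inhibitor and complement lists summed to 69.0 and 410.2 CPM, the highest of 35 organoids. Its clotting and carrier lists ranked 2 and 6 of 35. The acute-phase list ranked 18, at 718 CPM, within the 304 to 1237 CPM of the other 7 of Set 1. The hepatocyte enzymes that are not secreted summed to 10.6 CPM, the lowest of 35. Its mesenchymal list was at 0 and its macrophage list at 2.42 CPM, within the 1.80 to 3.46 CPM of the other 7.

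Among receptors, Lrp1 was higher in Set 1 by 1.70 on average (largest adj. P-value 0.00287) and Tfrc lower by -0.82 (largest adj. P-value 0.0285). The interleukin-6 receptor Il6ra was lower by -2.21 (largest adj. P-value 0.00988), and the other 9 genes of that list were not called against all 3 sets. Ductal markers summed to 3509.64 to 5122.5 CPM in Set 1 and to 3926.07 to 8043.7 CPM in the other sets, and proliferation genes to 341 to 1122 CPM and 589 to 1506 CPM. Their part in the Set 1 differences was not tested.

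Organoids of a set differed more in these genes than counting alone gives. The coefficient of variation (CV, SD over mean) of Ambp was 1.00, 0.324, 0.328 and 0.546 in Sets 1 to 4, where counting alone gives 0.0416, 0.0766, 0.0724 and 0.0866. Over the 8 members tested, the median CV was 0.737, 0.423, 0.364 and 0.631 in Sets 1 to 4, beside 0.344, 0.373, 0.279 and 0.305 over all genes. All genes include many at other expression levels, so this is a description. In Set 1, Alb and Fgb had the widest spread, with CVs of 1.79 and 1.68, against 0.213 and 0.116 from counting. C3 in Set 4 (0.865) and Trf in Set 4 (0.717) varied about as much as Hp, which has far fewer counts. The Hpx spread in Sets 2 and 3 (0.400 and 0.157) did not exceed the 0.449 and 0.368 that counting gives.

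**Figure D4:**
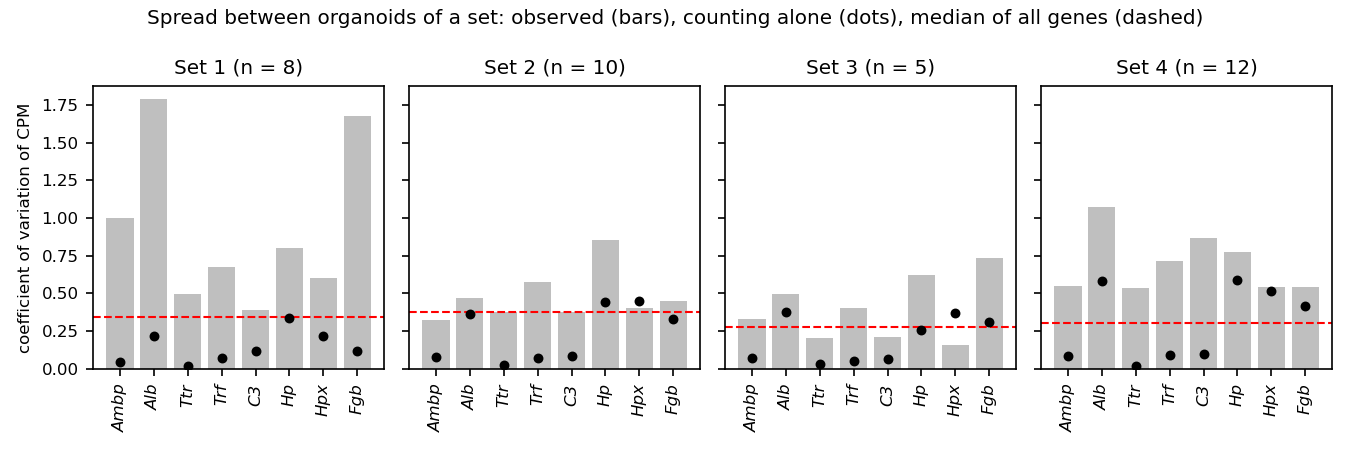
CV of CPM between organoids for 8 members in each set. Bars are the observed CV, dots the CV from counting alone and dashed lines the median over all genes. The tallest bars are Alb (1.79) and Fgb (1.68) in Set 1, and the Hpx bars of Sets 2 and 3 lie below their dots.

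Within sets, the members moved together only in part. With log2 CPM centred within each set, Ambp correlated with Alb at r = 0.560 (rho = 0.421), with Hpx at 0.441 (rho = 0.409) and with Fgb at 0.432 (rho = 0.168) over 35 organoids. Without the 2 organoids farthest from the median of Ambp, organoids 2 and 3 of Set 1, these fell to 0.268, 0.270 and 0.190, and without organoid 3 alone they were 0.315, 0.278 and 0.0383, so the value for Fgb rested on that organoid. Ambp and Trf were at 0.194, Ambp and C3 at 0.275. Of 28 pairs of members, 25 had an r above 0, with a median of 0.320, and the range ran from -0.322 (Ttr and C3) to 0.701 (Alb and Fgb). These pair values include organoid 3 of Set 1, which was the highest of all 35 for both Alb and Fgb. Pairs without Ambp were not computed without it, so how far they rest on that organoid is not known. The genes most like Ambp among 6487 genes of sufficient level were C4bp (r = 0.815, rho = 0.822), ccdc198 (0.792, rho = 0.726), Hsd17b2 (0.780, rho = 0.732), Gjb1 (0.769, rho = 0.610) and Gstt1 (0.765, rho = 0.694). They stayed at 0.840, 0.716, 0.698, 0.661 and 0.722 without those 2 organoids. The 95th percentile over these genes was 0.435. All points share the library and its depth between the genes compared, and no P-value is given.

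Bulk and single organoid values of the same set stood apart for some members, among them Ambp, and overlapped for others. The tables were scaled separately and the RNA was extracted in different ways, so they are set side by side with no test. Set 1 at passage 11 had 14.3 CPM of Ambp in bulk and 45.3 to 724 CPM in single organoids, and Fgb had no count in 4825320 in bulk, which allows up to 0.622 CPM for counting error only, and 6.04 to 143 CPM in single organoids. In Set 4 at passage 4, Ambp was at 189 CPM in bulk and at 28.7 to 139 CPM in single organoids. Other members of Set 1 at passage 11 did not follow Ambp. Ttr at 732 CPM in bulk lay within the 508 to 2340 CPM of single organoids, and C3 at 44.8 CPM within 14.1 to 45.9 CPM. Trf was higher in bulk, at 220 CPM against 34.5 to 208 CPM.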

How the data were processed

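The values are gene counts deposited by the authors in 3 tables, for 6 dome and suspension cultures, 42 single organoids and 12 bulk passage libraries. The authors sequenced 3′-end libraries with UMIs and processed them with zUMIs, STAR, SAMtools 1.9 and featureCounts on GRCm38 with Ensembl annotation, with down-sampling within zUMIs. Whether the counts are UMIs or reads was not given in the sources used here. Strand is not stated, so overlapping genes cannot be told apart. Counting limits cover counting error only.

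Members and gene lists were chosen with earlier results of these data known. The filter was filterByExpr (minimum count 3), and libraries were scaled by TMM. Tests were quasi-likelihood F-tests in edgeR 4.0.16 (R 4.3.3), with Benjamini-Hochberg adj. P-values over all genes and a threshold of 0.05, over all 6 comparisons for the 4 sets fitted together. No term for replicate was fitted. Technical replicates, whose chi-square per degree of freedom was 1.08 to 2.55, were summed and counted once. No P-value is given for the members between passages. Alternatives were RLE, other filters, limma-voom, DESeq2, thinning, a replicate block, left-out replicates, all 42 organoids, single technical replicates and adjustment within comparisons, and leaving out organoid 3 of Set 1 was added after seeing the data. Named non-members were those called with the largest change (up to 6 per direction) at an average log2 CPM of at least 3, and genes like Ambp were the 5 with the highest Pearson r at an average of at least 4. The scripts were tested on simulated data.

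Same-numbered samples were checked for pairing by the correlation of their residuals. It was 0.153, 0.165 and 0.191 for dome and suspension cultures. The sets at both passages come from the same mouse, with 0.110, 0.0283 and 0.108. Organoid numbers of different sets share only a number.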

Additional observations from a re-analysis of the deposited data

Results flagged for a closer look

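In single organoids, the highest or lowest of a set was compared with its nearest neighbour by the ratio of that gap to the range of the set, for 8 genes in Sets 1, 2 and 3. Of 24 groups of values, 8 had an organoid past the 95% critical value of Dixon, where chance gives about 1 in 20 if values are normally distributed. The CPM values were not put on a log scale, and all 8 flags were the highest of their set. The groups also share libraries, so no excess over chance is read from this count. Organoid 3 of Set 1 gave 4 of the 8, with Ambp at 724 CPM (next organoid 255), Alb at 44.0 CPM (next 11.5), Fgb at 143 CPM (next 19.3) and Hp at 9.23 CPM (next 4.51). These 4 values come from 1 library and are not independent. Trf was far from the rest in organoid 6 of Set 1 (208 CPM, next 109.7) and in organoid 11 of Set 2 (235 CPM, next 116). Fgb stood out in organoid 2 of Set 2 at 9.51 CPM (next 5.07), from a library of 1298591 counts, and Ambp in organoid 6 of Set 3 at 125 CPM (next 73.8). What sets these organoids apart was not tested.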

How the results depend on the processing

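Called members between dome and suspension were 2, and 1 with a minimum count of 10, with limma-voom and with thinned counts, where Fgb was lost or not tested, and 1 to 3 when 1 culture was left out. Called non-members in that comparison were 8, 14 with no filter, 4 thinned and 8 to 10 without 1 culture. With no filter, Trf was called at 1.47 (adj. P-value 7.77e-08), with an SE of 0.25 in place of 0.91. That SE does not follow the spread between the domes, at 6.54 to 226 CPM, so no difference in Trf is read from this call. Between passages, 11 non-members were called, 17 with no filter, 6 without both passages of Set 3, 6 without both passages of Set 4 and 8 to 12 without 1 culture. The Ambp log2 fold-change of -3.74 kept its direction in all 18 alternatives. Members called in Set 1 were 3, and 1 when thinned (Fgb, the gene with the largest fold-change). Non-members called in Set 1 were 4, and 1 with limma-voom, 0 thinned, 2 with all 42 organoids, 2 with adjustment within comparisons, 1 to 2 without 1 organoid of Set 3 and 1 without organoid 3 of Set 1, so this count was the least stable. In limma-voom, Ambp was not called against Set 3 (1.03, adj. P-value 0.079), nor in thinned counts (1.13, adj. P-value 0.0923). The median CV of the members, 0.544, was 0.516 to 0.530 in the alternatives. No called value turned its sign, values uncalled both ways were counted as unchanged, and the causes of the changes were not tested.

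With the replicate block, 2 members were called between dome and suspension, with Fgb at 2.65 (adj. P-value 0.00539), 11 non-members there and 14 between passages, and Ambp was at -3.69 for passage 11. For the sets, where the number of an organoid pairs nothing, the block left 3 members called in Set 1 and 4 among Sets 2, 3 and 4, with Trf and C3 gaining calls and Hp losing one. The smallest libraries limit genes under about 3 CPM (Alb, Hp, Hpx, Fgg, and Fgb in many libraries outside the single organoids of Set 1). For these a missed call says nothing of equality.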

Other observations

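The 7 single organoids that the study left out had Ambp at 56.1 to 149 CPM and Ttr at 768 to 1531 CPM, within the range of the 35 others. Their Alb level was 1.30 to 11.6 CPM, their C3 level 23.4 to 63.7 CPM and their Trf level 28.7 to 142 CPM. Fgg had no count in any of them.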
